A study of Mus musculus with 16 samples.

Results

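Protocadherins, the largest subgroup of the cadherin superfamily of calcium-dependent adhesion proteins, were examined in the chromatin accessibility data of mouse small cell lung cancer (SCLC). The genes were chosen by name: every protein-coding gene of the GENCODE basic annotation of mm10 with a symbol starting with *Pcdh* was taken, which gave 68 symbols. Their regions were the ATAC-seq peaks whose centre had one of these genes as its nearest protein-coding transcription start site. They numbered 158 of the 80367 peaks in the 2 deposited lists.

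ATAC-seq finds open chromatin with Tn5, a transposase that cuts accessible DNA and leaves sequencing adaptors there. The cells were sorted from pooled tumors of individual *TKO*;*Hes1*GFP/+ mice. In these mice floxed *Rb*, *p53* and *p130* alleles were deleted by Cre, delivered to the lung with an adenovirus under the ubiquitous CMV promoter, and 1 *Hes1* allele carries GFP. The deletions and the reporter are common to both groups: GFPhigh cells, the non-neuroendocrine (non-NE) cells with active *Hes1*, and GFPneg cells, the neuroendocrine (NE) cells. There were 8 libraries, 4 per group, from 4 sorted pairs of 3 mice, of which 1 mouse was sorted on 2 occasions as a technical replicate, and each library was run on 2 lanes. The first deposited list holds peaks more accessible in GFPhigh cells, called opened here (40828 peaks), and the second holds peaks less accessible in GFPhigh cells, called closed here (39539 peaks). Each listed peak has 1 mean normalised read count, taken by the authors over all libraries, so depth and spread per library are unknown and no value below has an SD or a p-value. Intervals are 95% Wilson intervals of shares of peaks, cover counting error only, and treat peaks as independent, although neighbouring peaks of a gene are not.

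The lists carried the labelled identities of the sorted cells. Of 8 NE marker genes, 6 had a closed peak within 1 kb of their start site, namely *Chgb*, *Chga*, *Insm1*, *Uchl1*, *Calca* and *Ncam1*, and none had an opened one, beside 8.43% and 26.6% of all protein-coding genes. Counted over all its peaks *Chga* had 6 closed and 8 opened. *Syp* and *Dll3* had no listed peak. All 6 non-NE marker genes, *Hes1*, *Rest*, *Notch2*, *Yap1*, *Wwtr1* and *Scgb1a1*, had an opened start-site peak. Of these, *Hes1* carries the reporter by which the cells were sorted and so is no independent marker, and it had 26 opened and 11 closed peaks. Over all their peaks, 82.8% were closed for the NE markers and 22.7% for the non-NE markers, beside 49.2% of all listed peaks. Markers of other cells had fewer listed peaks. Of the 18 of leukocytes 27.8% were closed (12.5 to 50.9), an interval that includes both the share of the non-NE markers and that of all peaks, and the 34 of endothelium (52.9%) and 23 of fibroblasts (56.5%) were near the share of all peaks. The endothelial list did not hold the endothelial cadherin gene *Cdh5*, counted below with the classical cadherins, which had 23 closed and 2 opened peaks. *Cd68* was the single one of 6 leukocyte genes with an opened start-site peak, *Ptprc* (CD45) had 11 opened and 5 closed peaks away from its start, endothelial *Kdr* and fibroblast *Col1a1* each had 1 opened start-site peak, and endothelial *Tek* and fibroblast *Col1a2* each had 1 closed one. By the study's methods the cell suspension was stained before sorting for the leukocyte marker CD45, the endothelial marker CD31, the erythroid marker TER-119 and CD24. The part of other cell types in the protocadherin peaks was not tested.

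Protocadherins fall into a clustered and an unclustered kind. The clustered genes stand in 3 arrays, alpha, beta and gamma, in which each variable first exon has its own promoter, and in neurons the choice among these promoters gives single cells different surface identities. In the alpha and gamma arrays the variable exon is spliced to shared constant exons. The unclustered genes are mostly the delta-protocadherins, divided by their cytoplasmic motifs into delta-1 (*Pcdh1*, *Pcdh7*, *Pcdh9*, *Pcdh11x*) and delta-2 (*Pcdh8*, *Pcdh10*, *Pcdh17*, *Pcdh18*, *Pcdh19*), which act in adhesion, cell sorting and synapse formation. REST, a repressor of neuronal genes in non-neuronal cells, binds a DNA element called RE1, and CTCF binds the promoters and enhancers of the clustered genes.

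Sequences from GRCm38.p6, the RefSeq assembly of the mm10 build, are shown here for the regions on which the results turn. The RE1 pattern was searched in every peak on both strands with up to 2 mismatches in its 13 fixed letters. The matches in the peaks of *Pcdh9* and *Pcdh7* are shown, which are not all matches found. The peaks that hold them are closed, as are all but 1 of the peaks of these genes. Each match is printed in the direction of the pattern with 10 bases on either side, and capitals mark the letters that equal the pattern. The first lies in an intron of *Pcdh9*, the next at its start site, and the last in intergenic DNA far upstream of *Pcdh7*.
Pcdh9 intron (chr14:93884664-93884698, plus strand): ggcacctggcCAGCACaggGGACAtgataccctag
Pcdh9 start site (chr14:93891201-93891235, minus strand): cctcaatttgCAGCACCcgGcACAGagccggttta
Pcdh7 far upstream (chr5:56341437-56341471, minus strand): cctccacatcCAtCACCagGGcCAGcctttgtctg
The match at the *Pcdh9* start site had 1 mismatch, and the other two had 2 each.

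The central parts of the start-site peaks of 4 genes are shown next. Among peaks within 1 kb of a protocadherin's own start these have the highest mean counts, 3 of them closed and that of *Pcdh19* opened. They are printed along the gene without the bases that the annotation places in untranslated regions, and capitals mark matches to the motifs given further on.
Pcdh8 start-site peak (chr14:79771313-79771420, minus strand): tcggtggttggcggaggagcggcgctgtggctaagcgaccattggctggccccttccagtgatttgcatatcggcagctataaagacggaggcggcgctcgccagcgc
Pcdh9 start-site peak (chr14:93890842-93891041, minus strand): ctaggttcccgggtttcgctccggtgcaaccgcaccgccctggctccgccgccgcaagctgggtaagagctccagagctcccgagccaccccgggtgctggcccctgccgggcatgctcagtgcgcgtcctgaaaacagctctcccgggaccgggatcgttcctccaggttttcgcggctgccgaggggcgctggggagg
Pcdh10 start-site peak (chr3:45378215-45378397, plus strand): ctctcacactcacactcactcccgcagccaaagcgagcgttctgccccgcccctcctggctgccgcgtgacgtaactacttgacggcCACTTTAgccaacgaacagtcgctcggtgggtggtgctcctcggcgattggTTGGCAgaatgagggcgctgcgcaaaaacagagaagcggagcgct
Pcdh19 start-site peak (chrX:133688988-133689139, minus strand): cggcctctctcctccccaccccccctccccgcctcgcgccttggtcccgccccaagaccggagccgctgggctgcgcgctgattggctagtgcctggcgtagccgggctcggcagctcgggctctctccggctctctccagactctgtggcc
The last set shows the central 200 bp of distal peaks: for *Pcdh7*, *Pcdh9* and *Pcdh8* the closed peak, and for *Pcdh19* the opened peak, with the highest mean count among peaks over 1 kb from any annotated start, noncoding ones included. Capitals again mark motif matches, and a motif found on the other strand appears as its reverse complement.
Pcdh7 downstream peak (chr5:58228787-58228986, plus strand): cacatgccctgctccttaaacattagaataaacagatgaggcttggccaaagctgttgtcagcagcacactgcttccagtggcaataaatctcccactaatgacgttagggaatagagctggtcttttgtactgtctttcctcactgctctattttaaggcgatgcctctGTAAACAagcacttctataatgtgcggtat
Pcdh9 intronic peak (chr14:93732932-93733131, minus strand): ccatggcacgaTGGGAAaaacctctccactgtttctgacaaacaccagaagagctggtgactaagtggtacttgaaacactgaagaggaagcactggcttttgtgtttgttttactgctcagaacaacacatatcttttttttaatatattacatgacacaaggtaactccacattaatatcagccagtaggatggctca
Pcdh8 upstream peak (chr14:79873155-79873354, minus strand): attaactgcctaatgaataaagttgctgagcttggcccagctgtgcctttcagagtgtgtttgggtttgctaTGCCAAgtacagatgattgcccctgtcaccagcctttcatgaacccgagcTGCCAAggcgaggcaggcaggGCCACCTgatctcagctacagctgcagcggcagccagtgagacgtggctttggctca
Pcdh19 upstream peak (chrX:133739072-133739271, minus strand): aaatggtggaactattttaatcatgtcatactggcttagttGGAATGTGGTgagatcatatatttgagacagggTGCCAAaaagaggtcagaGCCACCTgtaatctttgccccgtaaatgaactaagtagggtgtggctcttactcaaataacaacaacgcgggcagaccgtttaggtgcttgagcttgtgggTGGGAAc

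Most protocadherin peaks were closed in GFPhigh cells. Of 158 peaks, 136 were closed and 22 opened, a closed share of 86.1% (79.8 to 90.6), whereas 49.2% of all listed peaks were closed. The unclustered genes had 126 closed and 13 opened peaks, a closed share of 90.6% (84.7 to 94.5), and the clustered genes had 10 closed and 9 opened peaks, a closed share of 52.6% (31.7 to 72.7). The interval of the clustered genes includes the share over all peaks, and the difference between both kinds was not tested. *Pcdh7* and *Pcdh9* together held 79 of the 158 peaks. Without them, an alternative chosen after the data were seen, 58 of 79 peaks were closed (73.4%, 62.8 to 81.9). Among the unclustered genes alone, 12 of the 60 peaks that then remained were opened (20%), against 13 of 139 with both genes included.

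**Figure D1:**
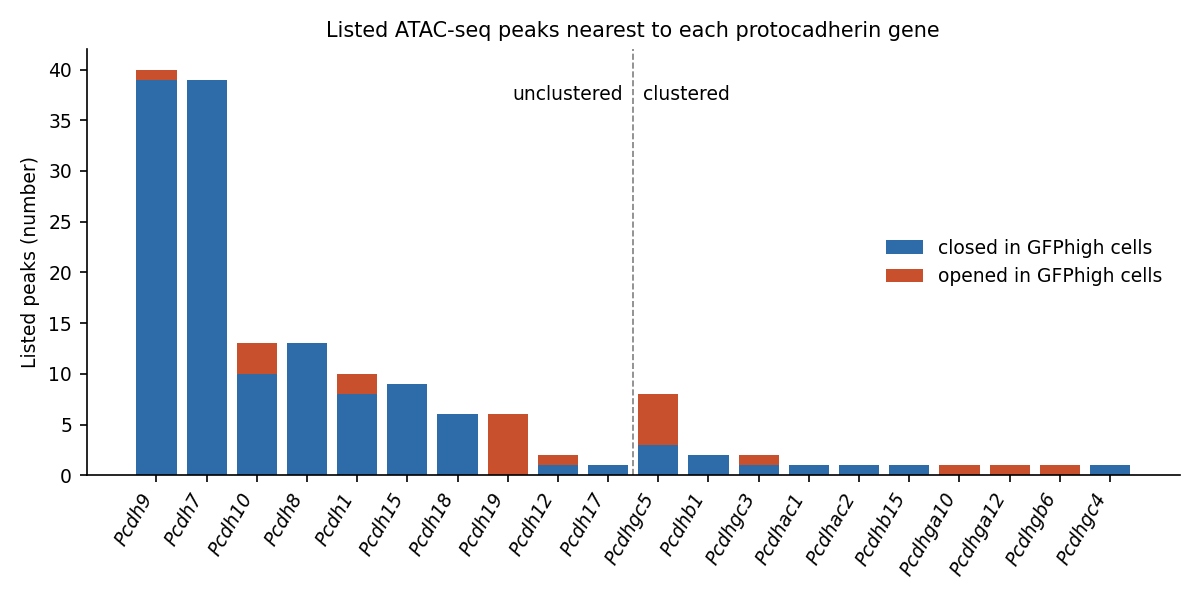
Number of listed peaks (vertical axis) assigned to each of the 20 protocadherin genes that have any, stacked by list, with unclustered genes to the left of the dashed line and clustered genes to the right. Pcdh7 and Pcdh9 have 39 closed peaks each, and Pcdh19 has 6 opened and 0 closed peaks.

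Counted by gene, 20 of the 68 protocadherins (29.4%) were nearest to at least 1 listed peak, against 66.5% of the 21924 protein-coding genes. They were 10 of 12 unclustered genes and 10 of 56 clustered genes. This count rests on the assignment to 1 nearest start: with gene bodies widened by 10 kb, under which overlapping clustered genes share peaks, 45 of the 68 had a peak, and the share of all genes under that assignment was not computed. A closed peak within 1 kb of the gene's own start was found for 8 genes (11.8%; 8.43% of all protein-coding genes). An opened one was found for 4 genes (5.88%; 26.6% of all protein-coding genes). The 8 genes with a closed start were *Pcdh7*, *Pcdh8*, *Pcdh9*, *Pcdh10*, *Pcdh15*, *Pcdh17*, *Pcdhac2* and *Pcdhb15*, and the 4 with an opened start were *Pcdh19*, *Pcdhgb6*, *Pcdhga10* and *Pcdhga12*. No protocadherin had both.

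The predominance of closed peaks was seen in each annotation class. At promoters, defined as centres within 1 kb of any annotated start, 23 of 28 protocadherin peaks were closed (82.1%), compared with 29.6% of all listed promoter peaks. In introns 78 of 88 were closed (88.6%; 52.6% of all), in exons 6 of 6 (49.3% of all), and between genes 29 of 36 (80.6%; 53.9% of all). Closed protocadherin peaks lay a median of 159 kb from the start site, against 42.4 kb for all closed peaks. This distance rests on *Pcdh7* and *Pcdh9*: without them the median was 41.0 kb, and for the closed peaks of the clustered genes it was 5.92 kb. Distant peaks were more often closed in the whole data set too. At the distances of the protocadherin peaks, the other listed peaks would have a closed share of 58.0%. The same calculation gave 48.6% for annotation class, 50.9% for GC content, 51.0% for mean count and 52.1% for width.

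**Figure D2:**
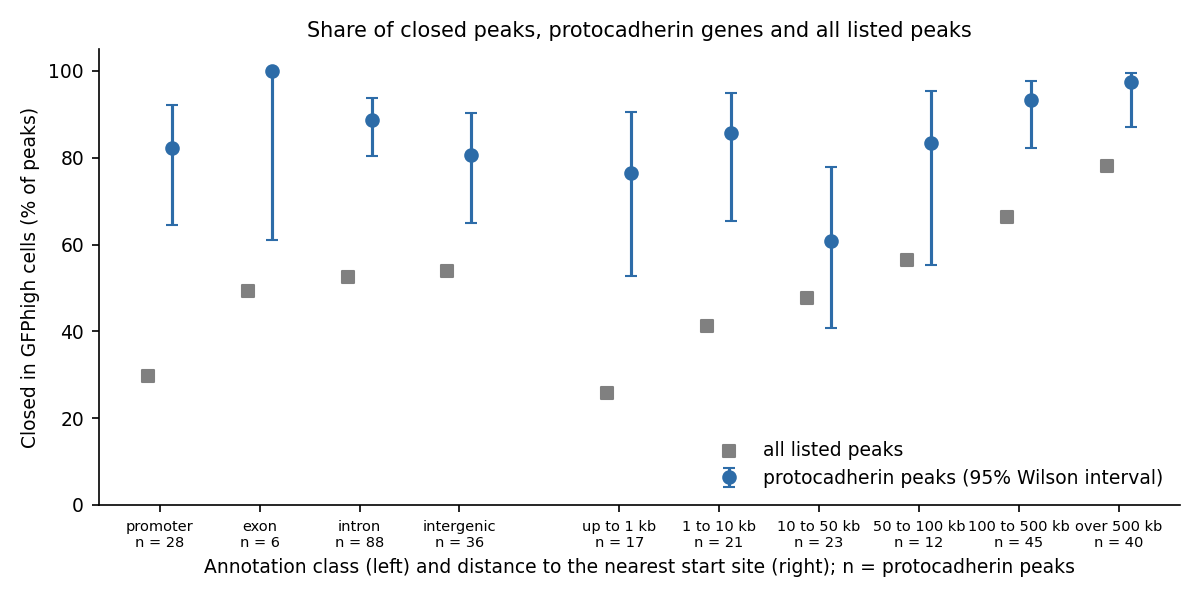
Share of peaks closed in GFPhigh cells (vertical axis, %) by annotation class and by distance to the nearest start site, for protocadherin peaks (circles with 95% Wilson intervals) and all listed peaks (squares). The protocadherin share is above that of all peaks in each class and distance range, and the interval of the 10 to 50 kb range, like that of the 50 to 100 kb range, includes the square.

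*Pcdh9*, a delta-1 protocadherin expressed widely in the nervous system, had 39 closed peaks and 1 opened peak. Its start-site peak (chr14:93890608-93891277) was the widest and had the highest mean count of all 158, at 670 bp and 567 normalised reads. Of its peaks, 35 lay within the 877 kb gene, and all 35 were closed. They were 31 intronic peaks, 3 small ones within 1 kb of further *Pcdh9* starts and 1 at the start of *Gm9247*, a processed pseudogene inside a *Pcdh9* intron. The highest of the intronic peaks (chr14:93732832-93733233) had a mean count of 267 and lay 156 kb into the gene. The next, at chr14:93653950-93654617, had a mean count of 126. The single opened peak was small, with a mean count of 7.04, and lay 2220 kb from the start, the farthest of all protocadherin peaks.

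*Pcdh7*, also of the delta-1 group and known to bind the phosphatase inhibitor SET, had 39 closed peaks and no opened one. Both it and *Pcdh9* were exceeded in closed peaks by 24 other protein-coding genes. Its highest peak was not at the start but 95.7 kb beyond the end of the gene (chr5:58228581-58229193, 613 bp), with a mean count of 343. At its start, 3 peaks had mean counts of 43.9, 45.5 and 95.1. Within the 415 kb gene lay 21 peaks, the intronic ones from 4.18 to 78.6 normalised reads. A further group of 8 closed peaks lay between 1277 and 1584 kb upstream, with mean counts from 16.6 to 169, and one of these holds the RE1 match printed above. No other protein-coding gene starts within 1 Mb of *Pcdh7*, *Pcdh9*, *Pcdh10* or *Pcdh17*, and distant peaks of *Pcdh7*, *Pcdh9* and *Pcdh10* were assigned for want of a nearer start.

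*Pcdh1*, the delta-1 protocadherin of airway epithelium, had 8 closed and 2 opened peaks and none at its start. The highest closed peak, with a mean count of 184, lay 65.5 kb past the start, beyond the gene, near another of 163 at 64.0 kb. Inside the gene a closed intronic peak with a mean count of 165 and another of 123 flanked an opened one (chr18:38200039-38200469) of 139, which was the highest and widest opened peak of the unclustered genes. Thus *Pcdh1* held peaks of both lists within its 26.1 kb. *Pcdh11x*, the remaining delta-1 gene, had no listed peak.

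**Figure D3:**
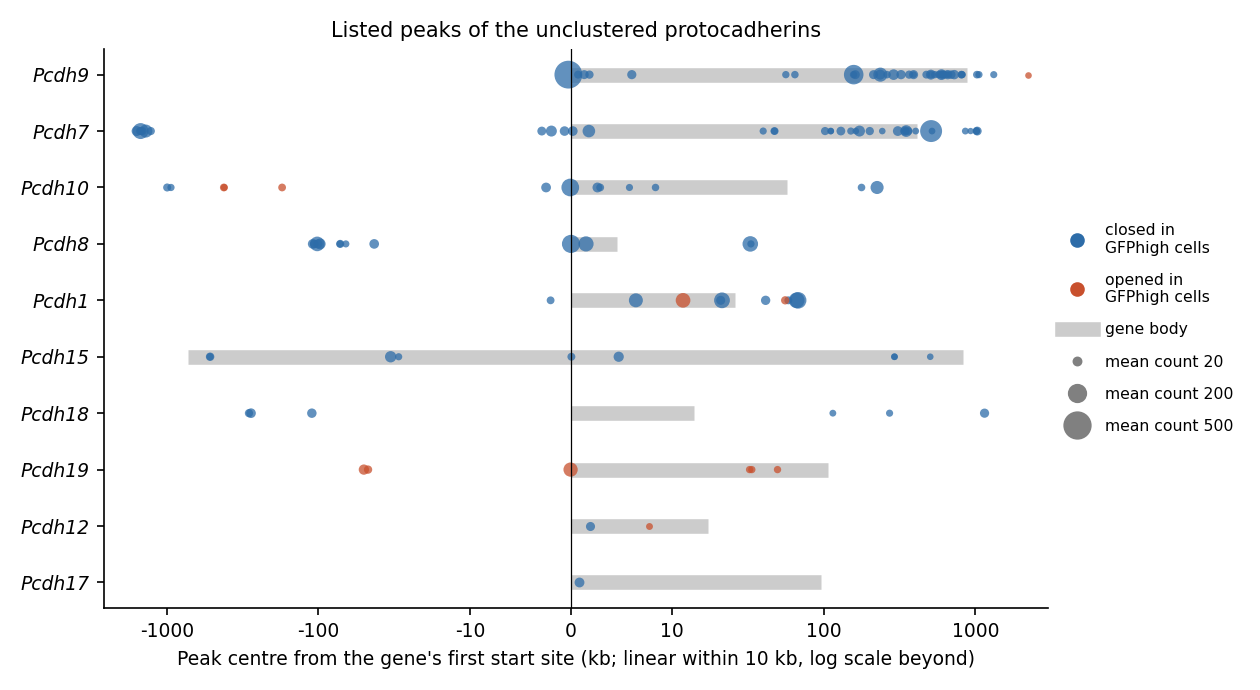
Position of each listed peak relative to the first start site of its unclustered protocadherin (horizontal axis, kb in the direction of transcription, linear within 10 kb and logarithmic beyond), coloured by list and sized by mean normalised read count, with gene bodies in grey. Closed peaks spread over Pcdh9 and Pcdh7, and some closed peaks of Pcdh7, Pcdh9, Pcdh10 and Pcdh18 lie far outside these genes. The opened peaks of Pcdh19 lie within about 50.2 kb of its start.

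*Pcdh8*, a delta-2 protocadherin induced by neuronal activity, had 13 closed peaks and no opened one. The start-site peak (chr14:79771168-79771474) had a mean count of 227, and a peak in its coding exon had one of 150. A pair 32.8 and 33.1 kb past the start, at the microRNA gene *Mir759*, had mean counts of 159 and 13.8. Upstream, 8 peaks between 66.0 and 109 kb from the start lay within the long noncoding RNA gene *Gm6999*, where the highest had a mean count of 138. Peaks of other genes within 1 Mb were of both lists, with 26 of 55 closed.

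*Pcdh10*, a delta-2 protocadherin that recruits the WAVE actin-regulatory complex, had 10 closed and 3 opened peaks. The start-site peak (chr3:45378154-45378477), shared with the start of the divergent transcript *2610316D01Rik*, had a mean count of 214. A further 3 closed peaks lay in coding exons, at 48.0, 20.7 and 12.5 normalised reads. All 3 opened peaks lay upstream, 174 to 421 kb away and outside any gene, with mean counts of 10.4 to 20.8. The 10 closed peaks were at and around the gene, from 2.48 kb upstream to 225 kb downstream of a start, except a pair 940 and 996 kb upstream.

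*Pcdh19*, the delta-2 protocadherin whose loss causes an epilepsy limited largely to females, was the single unclustered gene with opened peaks alone. Its 6 opened peaks included the start-site peak (chrX:133688828-133689252) with a mean count of 129. Another 3 lay in introns with mean counts of 14.3 to 14.9, and 2 lay 47.1 and 50.2 kb upstream with 26.5 and 54.8. The 16 peaks of other genes within 1 Mb included 7 closed ones.

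The other delta-2 genes had closed peaks alone. *Pcdh17*, which acts at presynaptic sites, had 1 peak, with a mean count of 47.7, in the 5′ untranslated exon 0.817 kb past its start. *Pcdh18*, an interactor of the adaptor DAB1, had 6 and none at its start or in its body. They lay 111 to 1151 kb from the start, with mean counts of 9.35 to 44.9, and 2 of them were in an intron of *Slc7a11*. For those 2 the nearest start and the surrounding gene were thus different.

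Of the unclustered genes outside the delta group, *Pcdh15*, a component of the tip links of inner-ear hair cells, had 9 closed peaks. The start-site peak had a mean count of 21.5, and the highest, at 72.5, lay 33.4 kb upstream of the basic transcripts but inside the gene record. Peaks around *Pcdh15* were also mostly closed, 59 of 87 within 1 Mb. *Pcdh12*, an endothelial protocadherin, had 1 closed peak in a coding exon (mean count 36.8) and 1 opened intronic peak (9.97). *Pcdh20* had none.

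The clustered genes lie in a stretch of chromosome 18, and they had 19 peaks. A total of 2 of 13 alpha genes, 2 of 22 beta genes and 6 of 21 gamma genes were nearest to a listed peak. All 5 alpha and beta peaks were closed, too few for a narrow interval (closed share 34.2 to 100% for the 2 alpha peaks and 43.9 to 100% for the 3 beta peaks). Of the 14 gamma peaks 9 were opened, a closed share of 35.7% (16.3 to 61.2). All of these intervals include the 49.2% of all listed peaks. As many of the alpha and gamma genes overlap, since each runs to the shared constant exons, the assignment to a single gene rests on the start site alone.

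In the alpha array the closed peak of *Pcdhac2*, a C-type gene whose promoter is not part of the random choice, lay in its 5′ untranslated exon (chr18:37143731-37143978) with a mean count of 29.9. The other, 7.47 kb upstream of the C-type gene *Pcdhac1*, had 13.4. A closed pair of peaks assigned to *Pcdhb1* lay in the interval between the alpha and beta arrays, 29.8 and 30.7 kb past the last alpha exon and 46.6 to 47.5 kb before *Pcdhb1*. The second of these (chr18:37218156-37218475), the widest closed peak of the clusters, had a mean count of 51.4 and contained a CTCF core outside its central 200 bp. The first had a mean count of 12.9. Known distal enhancers of the alpha genes also lie downstream of that array, but no enhancer coordinates were used here. In the beta array the start of *Pcdhb15* had a closed peak of 18.6 normalised reads, which also contained a CTCF core. The cores named for single cluster peaks were searched in whole peaks, where 10.7% of all closed and 16.9% of all opened peaks contained a core.

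**Figure D4:**
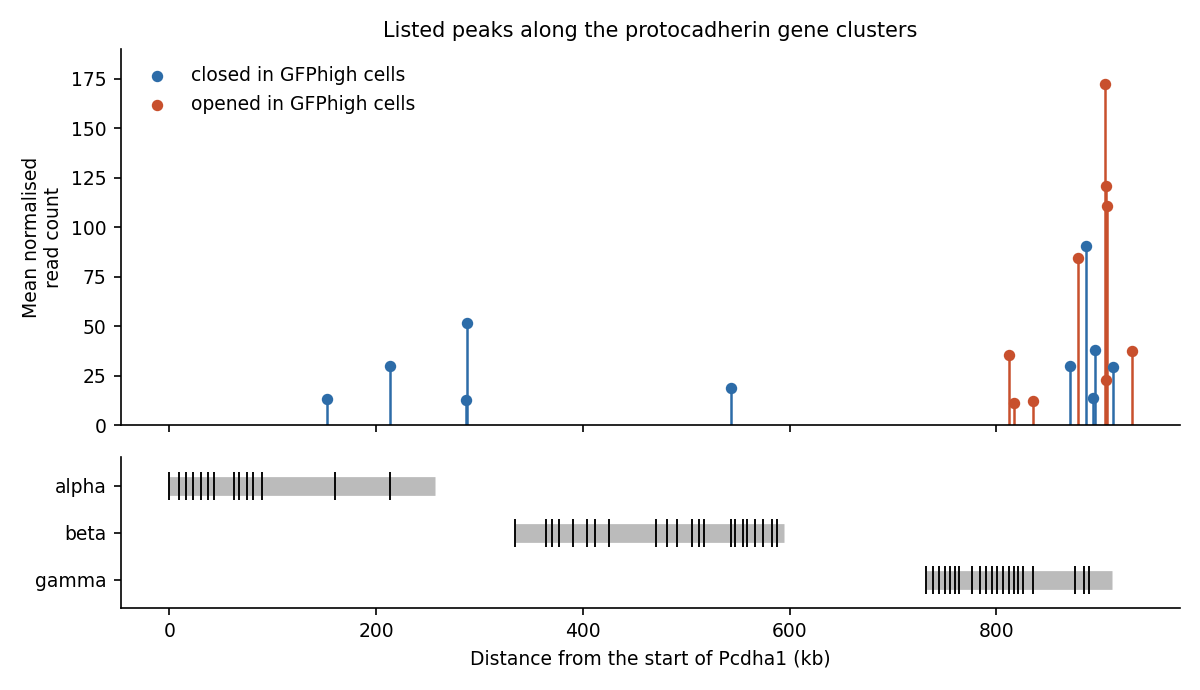
Mean normalised read count (upper vertical axis) of the 19 listed peaks along the protocadherin clusters, at their distance in kb from the start of Pcdha1 (horizontal axis), coloured by list. The lower panel gives the extent of each array in grey with gene starts as ticks. Peaks left of the gamma array are all closed, and the 3 highest are opened and lie near its end.

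In the gamma array opened peaks stood at the starts of *Pcdhgb6* (mean count 35.4), *Pcdhga10* (11.4) and *Pcdhga12* (12.1). Those of *Pcdhga10* and *Pcdhga12* were among the lowest of the 19. The C-type genes at the end of the array, whose promoters are regulated apart from those of the other gamma genes, had all the remaining peaks. *Pcdhgc3* had an opened peak of 84.7 in its coding first exon and a closed peak of 29.7 located 5.40 kb upstream. *Pcdhgc4* had a closed peak in its first exon (chr18:37817151-37817440) with a mean count of 90.7, the highest of the closed cluster peaks. *Pcdhgc5* had 5 opened and 3 closed peaks, and 1 of the closed ones (chr18:37825920-37826088) contained a CTCF core.

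Of the opened peaks of *Pcdhgc5*, 4 stood within 2242 bp of the last intron before the final constant exon, at least 16.1 kb past its start and 4.29 kb or more before the end of the array. Their mean counts were 172, 23.0, 121 and 111, and they included the highest (chr18:37835527-37835897) and the widest (613 bp) opened peak of the clusters. The first of them contained a CTCF core. The fifth opened peak, with 37.6 normalised reads and 41.5 kb past the start, lay in an intron of *Diaph1*. These 4 neighbouring peaks count separately. Joined where they lay within 500 bp of each other, the clustered genes had 6 opened among 16 peaks.

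Motifs were counted in the protocadherin peaks and in all listed peaks. In the 200 bp around the peak centre, 23.5% (17.2 to 31.3) of the 136 closed protocadherin peaks had the AP-1 motif TGANTCA, against 26.4% of all closed peaks. The NFI half-site TTGGCA was present in 19.1% (13.4 to 26.5; 13.4% of all), the NKX2 motif TNAAGTG in 15.4% (14.9%) and the RBPJ core TGGGAA in 14.7% (16.3%). The FOX motif TGTTTAC was in 11.8% (9.70%), the TEAD motif GGAATG in 10.3% (8.78%), the RUNX motif TGTGGT in 9.56% (5.67 to 15.7; 13.8%) and the CTCF core, AGGGGGC or AGGTGGC, in 8.09% (8.07%). RE1 matches were in 2.21% (0.753 to 6.28; 1.53%), without that at the *Pcdh9* start site, which lies outside the central 200 bp. In whole peaks they were in 2.94% (1.15 to 7.32) of the closed protocadherin peaks, beside 2.17% of all closed and 2.56% of all opened peaks. In peaks narrower than 200 bp, which were 59 of the 158, the searched window runs past the peak, so some matches lie just outside it. For each of the 9 motifs the interval of the closed protocadherin peaks included the share of all closed peaks, that of the NFI half-site barely so. The same was true of the 22 opened peaks against all opened peaks, but their intervals are wide, from 4.75 to 33.3% for AP-1 (10.6% of all opened peaks), so these counts do not show that the shares are alike. Both strands were searched, and the RUNX and TEAD letters overlap where they adjoin, as in the *Pcdh19* sequence shown above. Within the printed promoters, those of *Pcdh8*, *Pcdh9* and *Pcdh19* held none of the 9 motifs in the stretch shown, and that of *Pcdh10* held an NKX2 motif and an NFI half-site.

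Genes that act with the protocadherins had listed peaks in both directions. Of 12 regulators of the clusters, 6 had an opened start-site peak and none a closed one, beside 26.6% and 8.43% of all protein-coding genes. The 6 were *Ctcf* (mean count 630), the cohesin genes *Stag1* (341) and *Smc1a* (103), *Rest* (280), the DNA methyltransferase gene *Dnmt3b* (227) and the histone methyltransferase gene *Setdb1* (81.1). The cohesin gene *Rad21* had 5 closed peaks and no opened one, the cohesin loader gene *Nipbl* had 2 closed and 1 opened, and the cohesin release gene *Wapl* had 1 closed, all away from their starts. Of 11 genes for cytoplasmic partners, 4 had a closed start-site peak and 3 an opened one, beside the same 8.43% and 26.6% of all genes. *Cyfip2*, of the WAVE complex that delta-2 protocadherins bind, had 8 closed peaks with up to 190 normalised reads at its start, and the kinase gene *Fyn* had 27 closed and 2 opened peaks. The WAVE complex genes *Abi1* and *Wasf1* had closed start-site peaks of 33.3 and 31.9, with 3 closed and 4 opened peaks for *Abi1* and 3 closed ones alone for *Wasf1*. *Wasf2*, of the same complex, had 10 opened peaks and 1 closed. The kinase genes *Ptk2* and *Ptk2b* had opened start-site peaks of 482 and 180 among peaks of both lists, 8 closed and 8 opened for *Ptk2* and 5 closed and 4 opened for *Ptk2b*.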

How the data were processed

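Open chromatin was measured by ATAC-seq in GFPhigh and GFPneg SCLC cells of *TKO*;*Hes1*GFP/+ mice. Per the labels and the study's methods, the authors aligned paired reads to mm10 with Bowtie2 2.3.4.1, removed duplicates, called narrow peaks with MACS2 with reads shifted around Tn5 insertions, merged peaks across samples and counted reads per peak. The authors compared the groups with DESeq2 1.28.1 and deposited the differential peaks as 2 lists. The signal used here is the deposited mean per peak of the read counts divided by size factors, over all libraries. How the lanes and the technical replicate entered that mean is not given in the sources used here. The lists also hold log2 fold changes with standard errors, a test statistic, p-values and adjusted p-values of the authors' own comparison, and none of these columns was used. Peaks that did not pass the authors' limits were not analysed here, so shares refer to differential peaks alone.

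Peaks were assigned by their centre to the nearest start of a protein-coding gene in GENCODE basic, which has 69 protocadherin records with 68 symbols. One record without a protein-coding type, a pseudogene, was left out. Distances are from the nearest start of the gene. Classes were promoter (within 1 kb of any annotated start), exon, intron and intergenic, in this order. No test was run, because no value per sample is in the lists. Shares are given with Wilson intervals at 95%, beside the same share over all listed peaks. The share at matched distance, class, GC content, count or width is that of the other listed peaks weighted to the protocadherin bins. Motifs were searched as letters on both strands in the 200 bp around each peak's centre, with the mm10 sequence from RefSeq GRCm38.p6. Positions are 1-based. Python 3.11.15, numpy 2.4.6, pandas 2.3.3, scipy 1.17.1, pysam 0.24.0 and samtools 1.23.1 were used. The assignment, class and motif steps were tested on simulated data. The results of 1 marker gene, 1 motif and 1 sequence are not reported here.

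The protocadherins and all gene lists were chosen with earlier results of these data known. Genes were named by rule: all unclustered protocadherins, the clustered ones with a start-site peak or the most peaks or of the C type, the highest, widest and farthest peaks, and of the other lists genes with a start-site peak by mean count, up to 6 per list and direction. *Ptprc*, *Syp*, *Dll3*, *Rad21*, *Nipbl*, *Wapl*, *Cdh5*, *Fat1*, *Fat4* and genes that surround a peak were named besides, after their values were seen. Alternatives were a limit of 100 kb on distance, assignment by gene body with 10 kb on either side, starts of protein-coding transcripts alone, a minimum mean count of 20, merging of peaks within 500 bp, a promoter of 3 kb, whole peaks for motifs, and leaving out *Pcdh9*, or *Pcdh7* with *Pcdh9*, the last chosen after seeing the data.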

Additional observations from a re-analysis of the deposited data

How the results depend on the processing

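The opened share of protocadherin peaks (13.9%) remained below the 50.8% of all listed peaks under each alternative. The share of all listed peaks was not recomputed under the alternatives. With peaks within 100 kb of a start alone it was 24.7%, for the unclustered genes 16.7% instead of 9.35%, and the promoter share was 32.9% instead of 17.7%. Without *Pcdh7* and *Pcdh9*, chosen after seeing the data, the opened share was 26.6%, and 20% for the unclustered genes. A promoter of 3 kb gave a promoter share of 25.9%. Assignment to gene bodies with 10 kb on either side raised the genes with a peak from 20 to 45, since the overlapping clustered genes then share peaks, and moved the closed peaks of *Pcdh7* from 39 to 24, of *Pcdh8* from 13 to 2, of *Pcdh10* from 10 to 6, of *Pcdh1* from 8 to 4 and of *Pcdh18* from 6 to 0, and the opened peaks of *Pcdh10* from 3 to 0, of *Pcdh1* from 2 to 1 and of *Pcdh9* from 1 to 0. Under the other settings those shares stayed within their intervals, as did all shares of peaks with a motif when whole peaks were searched. No paired analysis was possible because the lists hold no value per sample, and for the same reason no replicate could be left out. The depth per library is unknown, so peaks with low mean counts carry an error that cannot be given.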

Other observations

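The classical cadherins, adhesion proteins that link to catenins, had 193 listed peaks, of which 79.3% (73.0 to 84.4) were closed, against 49.2% of all listed peaks. *Cdh2* (N-cadherin) had 42 closed and 2 opened peaks, with 485 normalised reads at its highest closed start-site peak, *Cdh20* had 19 closed and 3 opened, and *Cdh6* and *Cdh18* had closed start-site peaks of 52.9 and 34.8. *Cdh1* (E-cadherin) had 4 closed and 9 opened peaks, with 338 normalised reads at its highest opened start-site peak, *Cdh3* (P-cadherin) had 2 opened peaks alone, and *Cdh15* had an opened start-site peak of 85.9. The giant cadherins of the Fat, Dachsous and Celsr families had 138 peaks, of which 49.3% (41.1 to 57.5) were closed, about the share of all listed peaks. Among them *Celsr1*, a planar cell polarity gene, had 16 opened peaks and 1 closed, and *Dchs2* had 14 opened and 0 closed. *Fat1* had 27 closed and 10 opened peaks, and *Fat4* had 19 closed and 4 opened, all away from their starts. *Dchs1* had 2 closed peaks, both at its start, *Celsr3* had a closed start-site peak of 26.3, and *Fat3* had an opened one of 24.7. Intervals cover counting error only, and the difference between these families and the protocadherins was not tested.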
